A study of Mus musculus with 6 samples.

Results

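Heat shock proteins and their J-domain cochaperones were examined in mouse primary cortical neurons 1 hour after stimulation with NMDA, the agonist that names one class of glutamate receptors. The members were the rows of the deposited count table whose gene symbol starts with Hspa, Hspb, Hsp90, Hsph, Hspd, Hspe, Dnaja, Dnajb or Dnajc, together with Hsf1, Hsf2 and Bag3. Of 87 such rows, 67 had at least 10 counts in 3 or more libraries and were kept, among 38293 rows of the table and 14642 genes tested. Of the 67, 64 reached 10 counts in all 6 libraries, and none was kept through libraries of only a single group.

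The NMDA group held 3 libraries of wild-type neurons exposed for 10 minutes to NMDA at 50 µM, then left for 50 minutes in drug-free medium before collection. The control group held 3 libraries of untreated wild-type neurons. Both came from Swiss-Webster mouse embryos at embryonic day 16 and were cultured to day 13 in vitro, and gave RNA for stranded poly(A)-selected libraries. The shared protocol also mentions etoposide, which labels none of these libraries, and it speaks of 2 biological replicates where 3 libraries are listed, and the p-values therefore rest on a spread among libraries that may be partly technical.

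Heat shock proteins are molecular chaperones that bind unfolded proteins. HSP70 proteins grip exposed hydrophobic stretches in a cycle driven by ATP, J-domain proteins deliver substrates and stimulate that ATP cycle, and HSP110 and BAG proteins release the nucleotide. HSP90 acts later, on nearly folded clients such as kinases and hormone receptors, while the chaperonins HSP60 and HSP10 fold proteins inside mitochondria. HSF1 is the transcription factor that induces many of these genes after proteotoxic stress by binding heat shock elements, arrays of inverted GAA units. Neurons are known for a weak classical heat shock response and for abundant constitutive chaperones, and several J-domain proteins serve the synaptic vesicle cycle.

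The promoters of members were searched for such elements. RefSeq windows on GRCm38.p6, from 250 bases before to 50 bases after a transcript start, were found for 54 of the 67 members. The element was searched as an inverted pair, GAANNTTC or TTCNNGAA, each of which reads the same on both strands, and as a triple, in which a pair of each kind overlap by sharing a unit. A pair was in at least 1 window of 14 of the 54 members (25.9%) and of 17.0% of 27025 genes with a window. Among the 11123 tested genes with a window the share was 13.6%. A triple was in 4 of the 54 (7.41%), in 0.659% of all genes with a window and in 0.539% of those tested. These matches are descriptions of letters, not of binding. The following 6 windows run 5′ to 3′ along the gene, with inverted pairs in capitals. They are shown because the first 3 hold the element in members that rose within pairs of libraries. The last 3 hold it in heat shock genes that did not pass the test. Dnaja1 had 3 windows, and Dnajb4, Hsph1 and Hspd1 had 2 each, of which a window with the most pairs is printed. The other windows of Dnaja1, Dnajb4 and Hspd1 held no pair. The printed Dnajb4 window lies inside the gene, which spans chr3:152178511-152210302.
Dnaja1: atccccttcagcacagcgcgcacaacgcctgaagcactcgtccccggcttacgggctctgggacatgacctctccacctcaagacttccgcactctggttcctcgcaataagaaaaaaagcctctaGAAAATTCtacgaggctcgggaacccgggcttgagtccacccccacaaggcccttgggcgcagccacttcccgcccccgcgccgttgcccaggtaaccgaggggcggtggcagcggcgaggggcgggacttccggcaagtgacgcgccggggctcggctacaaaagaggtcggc
Dnajb4: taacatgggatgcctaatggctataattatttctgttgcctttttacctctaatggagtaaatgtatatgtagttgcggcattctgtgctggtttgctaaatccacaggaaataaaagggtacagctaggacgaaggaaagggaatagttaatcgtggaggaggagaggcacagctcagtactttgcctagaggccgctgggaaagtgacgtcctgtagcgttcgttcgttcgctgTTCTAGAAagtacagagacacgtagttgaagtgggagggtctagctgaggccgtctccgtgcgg
Hspb8: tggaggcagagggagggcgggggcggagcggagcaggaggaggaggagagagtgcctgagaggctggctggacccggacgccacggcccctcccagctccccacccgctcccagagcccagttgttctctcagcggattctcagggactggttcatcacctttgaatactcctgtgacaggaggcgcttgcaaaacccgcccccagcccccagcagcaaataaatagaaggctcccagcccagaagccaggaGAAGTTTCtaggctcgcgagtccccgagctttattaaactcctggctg
Hsph1: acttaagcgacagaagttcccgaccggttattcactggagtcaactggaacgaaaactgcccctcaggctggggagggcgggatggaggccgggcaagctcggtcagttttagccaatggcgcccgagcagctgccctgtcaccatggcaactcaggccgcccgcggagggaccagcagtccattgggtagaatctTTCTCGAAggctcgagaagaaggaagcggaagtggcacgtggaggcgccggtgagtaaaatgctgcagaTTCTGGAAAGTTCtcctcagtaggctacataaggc
Hspd1: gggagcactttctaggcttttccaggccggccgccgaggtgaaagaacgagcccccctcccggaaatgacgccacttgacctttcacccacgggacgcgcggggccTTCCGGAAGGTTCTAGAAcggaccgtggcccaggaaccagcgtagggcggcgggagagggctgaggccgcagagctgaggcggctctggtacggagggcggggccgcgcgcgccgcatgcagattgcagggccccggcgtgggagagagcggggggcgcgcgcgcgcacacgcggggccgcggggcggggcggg
Hspa1a: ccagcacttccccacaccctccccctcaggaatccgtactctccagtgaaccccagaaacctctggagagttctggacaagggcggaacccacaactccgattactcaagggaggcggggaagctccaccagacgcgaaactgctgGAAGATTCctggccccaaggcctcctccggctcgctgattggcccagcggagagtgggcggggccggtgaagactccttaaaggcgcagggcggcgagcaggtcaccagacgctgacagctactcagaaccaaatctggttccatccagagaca
The windows lie at chr4:40722218-40722517 on the plus strand, and at chr3:152193796-152194095, chr5:116422815-116423114, chr5:149636266-149636565, chr1:55087883-55088182 and chr17:34972107-34972406 on the minus strand, in that order. In Hspd1 the capitals hold 3 overlapping pairs and 2 triples, starting 144 bases before the transcript start. Hspd1 and Hspe1, which encode HSP60 and HSP10, start head to head on chromosome 1, and their windows share 285 bases, so both hold the same elements. The Hspa1a and Hspa1b windows are identical at 296 of 300 positions, and each holds a pair. The counts of members with an element therefore include such repeated sequence. Hsph1 holds a triple just after its start, where the pairs begin 15 and 20 bases downstream. Among members that rose, 3 of 9 with a window held a pair and 0 a triple, against 11 and 4 of 45 that passed in neither direction.

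Totals of counted reads were between 15417234 and 18606264 in NMDA libraries and between 17860691 and 19183999 in control libraries, and the members took 0.903% to 0.991% and 0.748% to 0.982% of them. Levels are given in CPM, the count scaled to library size with TMM factors. The stimulation registered in every library: Fos, an activity-induced transcription factor gene, was at 105, 144 and 98.5 CPM in NMDA libraries and 3.79, 2.67 and 3.43 CPM in controls. Arc was at 17.9, 34.3 and 19.1 CPM in NMDA and 3.30, 3.11 and 4.96 CPM in control libraries, and Egr1 at 162, 158 and 135 CPM and 35.0, 33.0 and 44.9 CPM. Neuronal markers were present throughout, with a summed level of 5967 to 6897 CPM in NMDA and 6117 to 6819 CPM in control libraries. Between libraries of the same replicate number, in the paired fit described below, 2 of 10 rose, Rbfox3 and Tubb3, and 0 fell. The cultures were not purely neuronal: 10 astrocyte markers summed to 2336 to 3565 CPM in NMDA and 2164 to 2835 CPM in control libraries, and 7 of 9 tested rose within pairs. Markers of cycling cells and progenitors summed to 504 to 750 CPM in NMDA and 472 to 634 CPM in control libraries, and 2 of 4 rose. Oligodendrocyte lineage markers summed to 514 to 894 CPM in NMDA and 428 to 916 CPM in control libraries, with 0 of 8 higher and 1 lower. Of all tested genes 5.65% rose and 8.35% fell in the same paired fit. Microglial markers summed to 3.82 to 4.15 and 3.17 to 4.61 CPM, and the endothelial marker Cldn5 was at 0 in every library. Mitochondrially encoded genes took 11.2% to 15.3% of counts in NMDA and 9.77% to 17.6% in control libraries.

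When the groups were compared by treatment alone, no member passed edgeR's quasi-likelihood test at an adjusted p under 0.05 over all 14642 genes. None of 67 rose or fell, where 0.376% of all genes rose and 0.0546% fell (0.43% in either direction). At an unadjusted p under 0.05 that fit had 9 members higher and 6 lower, beside 5.19% and 8.47% of all genes (13.7% in all), and DESeq2 and limma-voom without the block also called 0. When libraries of the same replicate number were compared, with the number as a block in the same test, 12 members rose and 1 fell. Of all tested genes 5.65% rose and 8.35% fell in that paired fit, 14.0% in all, and the members' shares were 17.9% and 1.49%. The changes were small, from 1.18-fold to 1.49-fold among those that rose. The median log2 fold change of the members was 0.07 within pairs, beside -0.0036 for all tested genes. In what follows, rose and fell refer to the paired fit.

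Most paired calls were lost without replicate 2, although the members' median log2 fold change was then 0.111, beside 0.07 with all pairs. Without both libraries of that number only Hspa2 still rose and Hsf1 still fell, while the other 11 log2 fold changes, at 0.17 to 0.38, stayed positive. That fit has 1 residual degree of freedom less and called 335 genes higher and 683 lower in all. The DESeq2 Wald test with the same block called 7 members higher and 1 lower, among 433 genes higher and 530 lower in all. Without both libraries of replicate 1 edgeR called 13 members higher and 5 lower, among 1341 genes higher and 1366 lower. With offsets for GC content and length 12 members rose, while the split over all genes turned from 828 higher and 1223 lower to 1159 and 969.

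**Figure D1:**
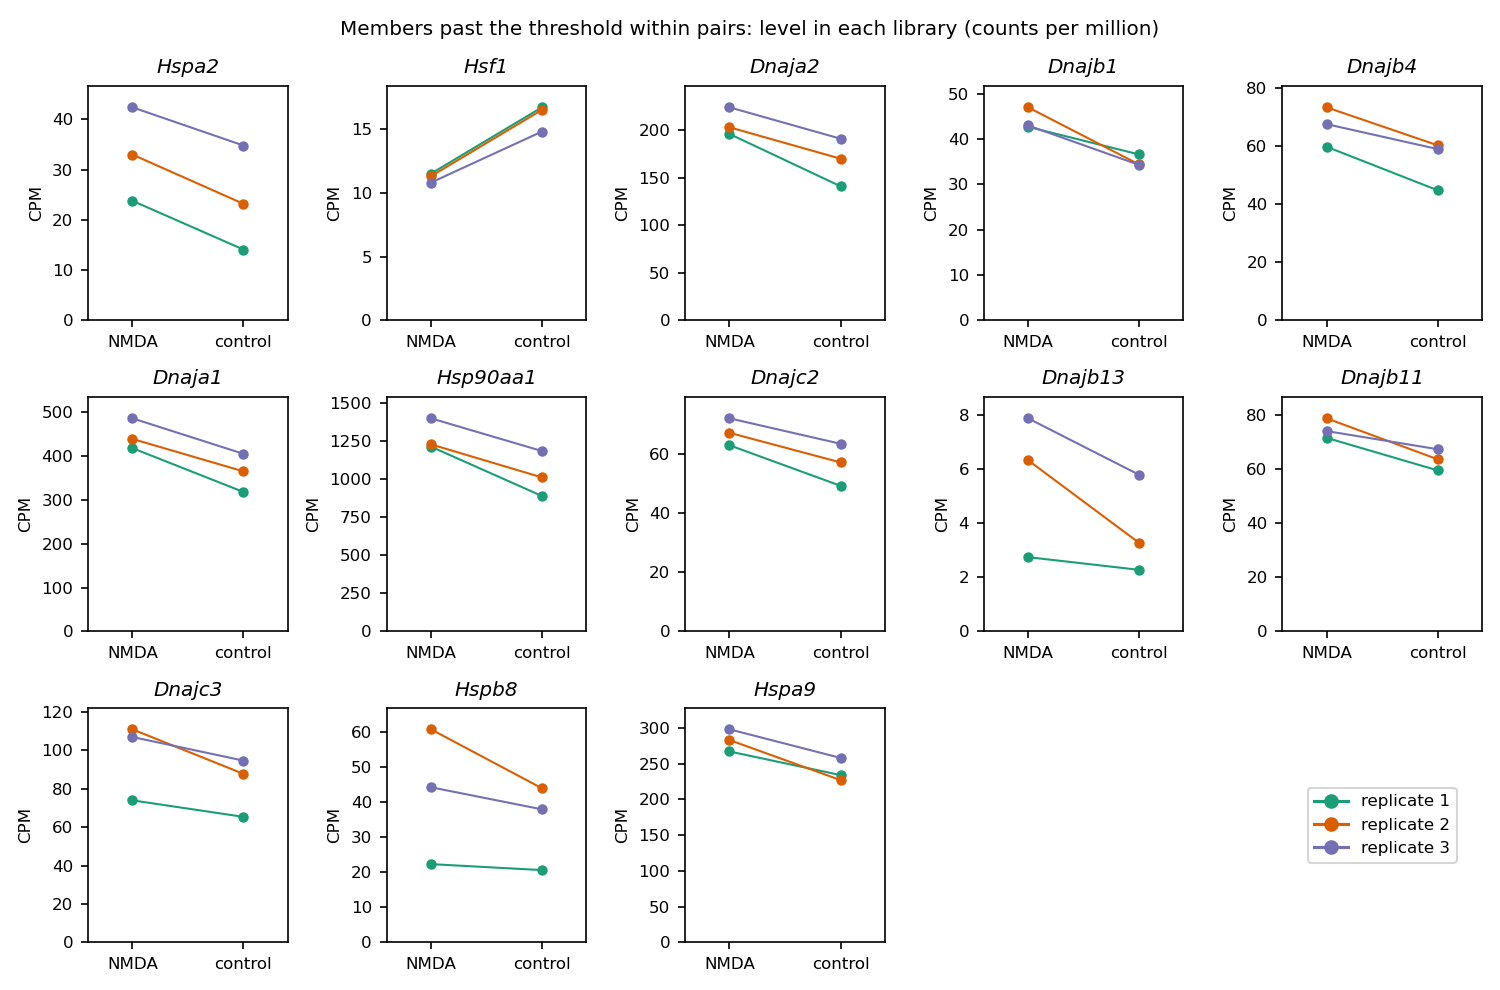
Level of the 13 members that passed the paired test, in CPM (vertical axes, from 0), in NMDA (left) and control (right) libraries; lines join libraries of the same replicate number. In 12 panels all 3 lines are higher at NMDA, and in Hsf1 all 3 are lower.

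Hsf1 was the only member that fell. It encodes the master regulator of the heat shock response and lies at chr15:76477422-76501913 on GRCm38. Its level was 11.5, 11.3 and 10.8 CPM in NMDA libraries 1, 2 and 3, against 16.7, 16.5 and 14.8 CPM in control libraries 1, 2 and 3. The groups did not overlap, and the log2 fold change was -0.51 ± 0.11 (SE) within pairs (edgeR adjusted p = 0.003) and -0.51 ± 0.12 without the block (adjusted p = 0.14). It kept its call in all 10 other paired settings, with values from -0.53 to -0.48. Hsf2, a related factor that can pair with HSF1, was at 64.2, 61.8 and 64.1 CPM in NMDA and 59.4, 64.7 and 65.1 CPM in control libraries. Its groups overlapped and its log2 fold change was 0.01 ± 0.07 within pairs (adjusted p = 0.96). Whether the changes of Hsf1 and Hsf2 differed was not tested.

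Among 10 HSP70 genes 2 rose within pairs and none fell, where 5.65% of all tested genes rose and 8.35% fell. Hspa2 (chr12:76404176-76406938), an HSP70 known for its role in sperm formation in mice, was at 23.8, 33.0 and 42.4 CPM in NMDA and 14.1, 23.2 and 34.8 CPM in control libraries. The groups overlapped widely, and the level differed more between replicate numbers than between treatments, yet NMDA was higher in each pair. The log2 fold change was 0.49 ± 0.10 within pairs (edgeR adjusted p = 0.0016) and 0.46 ± 0.33 without the block (adjusted p = 0.58). Hspa9 (chr18:34937414-34954357), mortalin, the HSP70 of the mitochondrial matrix, was at 267, 283 and 298 CPM in NMDA and 234, 227 and 258 CPM in control libraries. Its groups did not overlap, with a log2 fold change of 0.24 ± 0.07 within pairs (adjusted p = 0.038), a call lost without replicate 2 or without replicate 3.

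Hspa8, the constitutive HSC70 that also uncoats clathrin vesicles at synapses, was at 1016, 937 and 954 CPM in NMDA and 707, 917 and 961 CPM in control libraries. Control replicate 1 was low, control replicate 3 lay within the NMDA range, and the gene did not pass (log2 0.18 ± 0.10 within pairs, adjusted p = 0.24). Hspa5, the BiP chaperone of the endoplasmic reticulum, was at 314, 402 and 363 CPM in NMDA and 296, 349 and 370 CPM in control libraries (0.09 ± 0.08, adjusted p = 0.51). Hspa13, a microsomal HSP70, had 127, 112 and 111 CPM in NMDA and 132, 136 and 142 CPM in control libraries. Its groups did not overlap, with NMDA below, and it just missed the threshold (-0.23 ± 0.08, adjusted p = 0.051). It passed as lower in the paired fits with no low-count filter and with a filter at 1 CPM. Hspa12a, a distant HSP70 relative, was at 81.7, 78.4 and 80.6 CPM in NMDA and 78.0, 88.1 and 114 CPM in control libraries (-0.21 ± 0.09, adjusted p = 0.15). The NMDA values were close together and the control values spread above and below them.

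The stress-inducible HSP70 genes Hspa1a (chr17:34969190-34972156) and Hspa1b (chr17:34956436-34959238) were barely expressed. Hspa1a had 7, 16 and 17 counts in NMDA and 3, 2 and 13 counts in control libraries, and Hspa1b had 27, 47 and 35 counts in NMDA and 28, 33 and 24 counts in controls. The log2 fold changes within pairs were 1.24 ± 0.49 (adjusted p = 0.10) and 0.44 ± 0.25 (adjusted p = 0.26), and the groups overlapped for each gene. These genes are near-identical copies: 60.3% of the 50-base stretches in the annotated transcripts of Hspa1a also occur in those of other genes, chiefly Hspa1b. How shared reads were assigned is not given in the sources used here. Their separate values are therefore uncertain. Summed into 1 row, they gave 0.60 within pairs (adjusted p = 0.076) and 0.62 without the block (adjusted p = 0.33). Hspa1l, their neighbour 546 bases from Hspa1a, had 13, 10 and 11 counts in NMDA and 12, 20 and 11 counts in controls, and 71.9% of its exonic bases overlap Gm10501 on the opposite strand.

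No HSP110 gene passed, although the 3 estimates within pairs were above 0. Hsph1, the inducible HSP110, was at 239, 247 and 262 CPM in NMDA and 178, 214 and 258 CPM in control libraries (log2 0.21 ± 0.08 within pairs, edgeR adjusted p = 0.087). Hspa4, the constitutive form, had 404, 472 and 430 CPM in NMDA and 326, 407 and 440 CPM in control libraries (0.16 ± 0.08, adjusted p = 0.20). In each, NMDA was above control in pair 1 by the widest margin, and the groups overlapped. Hspa4l was at 130, 181 and 168 CPM in NMDA and 128, 159 and 174 CPM in control libraries (0.05 ± 0.07, adjusted p = 0.70). Bag3, the cochaperone that directs HSP70 clients to selective autophagy and a known HSF1 target, was at 1.74, 3.53 and 4.16 CPM in NMDA and 1.25, 2.56 and 2.27 CPM in control libraries. NMDA was higher in every pair, but the gene did not pass (0.63 ± 0.22, adjusted p = 0.057); without a low-count filter, or without replicate 1, it did.

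Of 3 HSP90 genes 1 rose and none fell, beside 5.65% and 8.35% of all tested genes. Hsp90aa1 (chr12:110690605-110702728), the inducible cytosolic HSP90 alpha, rose within pairs. Its level was 1213, 1228 and 1399 CPM in NMDA and 889, 1011 and 1184 CPM in control libraries. The groups did not overlap, and the log2 fold change was 0.32 ± 0.09 within pairs (edgeR adjusted p = 0.016) and 0.32 ± 0.13 without the block (adjusted p = 0.32). In its transcripts 47.5% of 50-base stretches recur in other annotated genes, mostly Gm12346 and Gm5844, so its count is uncertain to that extent. Hsp90ab1, the constitutive HSP90 beta, was at 1802, 1703 and 1769 CPM in NMDA and 1350, 1521 and 1722 CPM in control libraries. NMDA was higher in each pair, by a log2 difference of 0.42, 0.16 and 0.04, and the gene did not pass (0.21 ± 0.10, adjusted p = 0.16). Hsp90b1, which encodes GRP94 of the endoplasmic reticulum, was at 240, 309 and 297 CPM in NMDA and 210, 271 and 315 CPM in control libraries (0.10 ± 0.08, adjusted p = 0.45).

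Neither mitochondrial chaperonin gene passed. Hspd1 had 239, 259 and 266 CPM in NMDA and 200, 224 and 247 CPM in control libraries (log2 0.19 ± 0.07 within pairs, edgeR adjusted p = 0.096). Hspe1 had 125, 117 and 115 CPM in NMDA and 131, 125 and 89.2 CPM in control libraries (0.07 ± 0.09, adjusted p = 0.67). The genes share a promoter region but differed in pattern: Hspd1 was higher at NMDA in every pair, and Hspe1 only in pair 3, where its control was low. Of 3 genes counted as small heat shock proteins, Hspb8 (chr5:116408491-116422864), a partner of BAG3, rose within pairs, beside 5.65% of all tested genes. It was at 22.3, 60.7 and 44.2 CPM in NMDA and 20.6, 43.9 and 37.9 CPM in control libraries, so the replicates differed far more than the treatments. Its log2 fold change was 0.28 ± 0.09 within pairs (adjusted p = 0.034), and the call was lost with DESeq2, with GC and length offsets and without replicate 2. Hspb6 and Hspb11, which is also an intraflagellar transport subunit, did not pass (0.23 ± 0.16 and -0.08 ± 0.11).

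**Figure D2:**
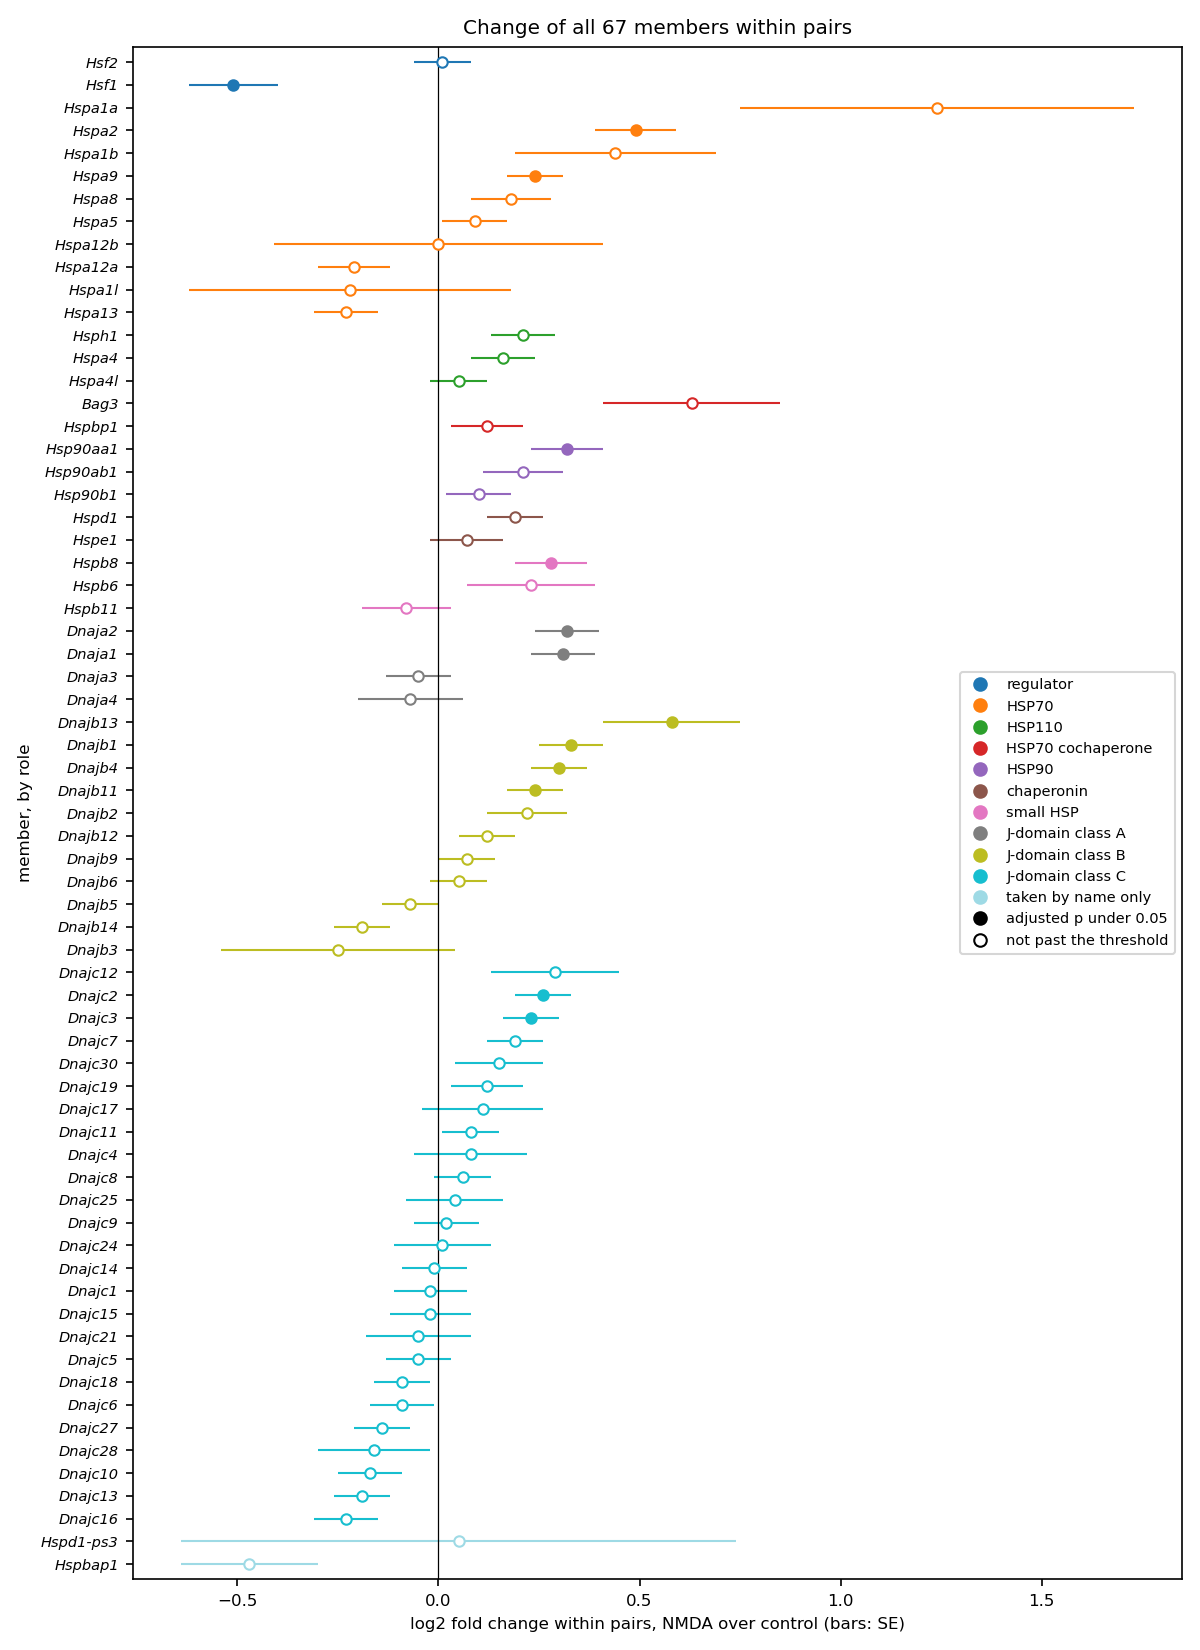
Log2 fold change of the 67 members within pairs, NMDA over control (horizontal axis; bars are SE), grouped and coloured by role; filled points passed the threshold. The 12 filled points right of 0 lie between 0.23 and 0.58, and Hsf1 at -0.51 is the single filled point to the left.

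J-domain genes made up 40 of the 67 members, and 8 of them rose and 0 fell within pairs. By class, 2 of 4 class A genes, 4 of 11 class B genes and 2 of 25 class C genes rose, beside 5.65% of all tested genes. Class A proteins carry the full DnaJ architecture, class B proteins lack its zinc finger, and class C proteins share only the J domain. The medians within pairs were 0.13, 0.12 and 0.01. Whether the classes differed was not tested.

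In class A, the cytosolic Dnaja1 (chr4:40722150-40737149) and Dnaja2 (chr8:85537633-85555344) both rose. Dnaja1 was at 418, 439 and 486 CPM in NMDA and 318, 365 and 405 CPM in control libraries. In its transcripts 11.9% of 50-base stretches recur in other annotated genes, and 7.05% of its exonic bases overlap Smu1 on the opposite strand. Dnaja2 was at 196, 203 and 224 CPM in NMDA and 141, 170 and 191 CPM in controls. Neither gene's groups overlapped. The log2 fold changes within pairs were 0.31 ± 0.08 for Dnaja1 (edgeR adjusted p = 0.011) and 0.32 ± 0.08 for Dnaja2 (adjusted p = 0.0074). Without the block the adjusted p was 0.28 and 0.29. The other class A genes, the mitochondrial Dnaja3 and the cytosolic Dnaja4, were at -0.05 ± 0.08 and -0.07 ± 0.13 and did not pass.

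In class B, Dnajb1 (chr8:83608193-83612653), the HSP40 that partners inducible HSP70 and feeds back on HSF1, rose. It had 42.7, 47.0 and 43.0 CPM in NMDA and 36.6, 34.4 and 34.3 CPM in control libraries, with no overlap. Its log2 fold change was 0.33 ± 0.08 within pairs (edgeR adjusted p = 0.0085) and 0.33 ± 0.09 without the block (adjusted p = 0.18). Its close relative Dnajb4 (chr3:152178511-152210302) had 59.9, 73.5 and 67.7 CPM in NMDA and 44.9, 60.4 and 59.1 CPM in controls, with a slight overlap (0.30 ± 0.07, adjusted p = 0.010). Dnajb11 (chr16:22857845-22879634), a cochaperone of BiP in the endoplasmic reticulum, had 71.4, 78.6 and 73.9 CPM in NMDA and 59.4, 63.5 and 67.2 CPM in controls. Its groups did not overlap (0.24 ± 0.07, adjusted p = 0.032), and the call was lost with DESeq2 (adjusted p = 0.12) and without replicate 2. Dnajb13 (chr7:100501716-100514960), known from sperm flagella, had only 2.75, 6.34 and 7.89 CPM in NMDA and 2.28, 3.28 and 5.80 CPM in controls (0.58 ± 0.17, adjusted p = 0.031). Its groups overlapped, 11.2% of its exonic bases overlap Ucp2 on the opposite strand, and whether the counting used strand is not stated in the sources at hand. The Dnajb13 call was lost with DESeq2 (adjusted p = 0.21), without replicate 2 (log2 0.38, adjusted p = 0.35) and without replicate 3 (adjusted p = 0.056).

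The other class B genes did not pass. Dnajb2, a neuron-enriched protein that sorts ubiquitinated clients, had 15.8, 14.3 and 17.0 CPM in NMDA and 12.8, 12.2 and 15.4 CPM in control libraries (log2 0.22 ± 0.10 within pairs, edgeR adjusted p = 0.17). Dnajb6, a suppressor of polyglutamine aggregation, had 168, 163 and 160 CPM in NMDA and 161, 163 and 153 CPM in controls (0.05 ± 0.07, adjusted p = 0.72). Dnajb5 had 74.0, 66.9 and 69.5 CPM in NMDA and 76.8, 70.9 and 73.2 CPM in controls (-0.07 ± 0.07, adjusted p = 0.55). For Dnajb6 and Dnajb5 the groups overlapped and the difference was within the spread of the replicates. Dnajb9, a target of the unfolded protein response in the endoplasmic reticulum, had 58.1, 54.2 and 58.9 CPM in NMDA and 53.0, 53.8 and 56.1 CPM in controls (0.07 ± 0.07, adjusted p = 0.57).

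In class C, Dnajc2 (chr5:21757267-21785251), which recruits HSP70 to the ribosome, and Dnajc3 (chr14:118937976-118981697), a cochaperone of BiP also known as an inhibitor of the kinase PKR, rose. Dnajc2 had 62.9, 67.1 and 72.0 CPM in NMDA and 49.2, 57.1 and 63.4 CPM in control libraries (log2 0.26 ± 0.07 within pairs, edgeR adjusted p = 0.023). Dnajc3 had 74.0, 111 and 107 CPM in NMDA and 65.4, 87.8 and 94.7 CPM in controls (0.23 ± 0.07, adjusted p = 0.034). Both overlapped between groups while being higher at NMDA in every pair, and both lost their call with DESeq2 and without replicate 2. Dnajc7, which binds both HSP70 and HSP90, had 150, 153 and 155 CPM in NMDA and 131, 132 and 139 CPM in controls (0.19 ± 0.07, adjusted p = 0.084). Its groups did not overlap, yet it did not pass.

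The J-domain genes of the synaptic vesicle cycle did not pass. Dnajc5, which encodes the cysteine string protein of synaptic vesicles, had 384, 360 and 367 CPM in NMDA and 410, 349 and 396 CPM in control libraries (log2 -0.05 ± 0.08 within pairs, edgeR adjusted p = 0.70). Dnajc6, which encodes the neuronal auxilin that helps HSC70 remove clathrin, had 199, 180 and 197 CPM in NMDA and 189, 194 and 231 CPM in controls (-0.09 ± 0.08, adjusted p = 0.48). Dnajc13, an endosomal J-domain protein, had 85.7, 87.7 and 78.8 CPM in NMDA and 94.7, 96.4 and 96.8 CPM in controls (-0.19 ± 0.07, adjusted p = 0.076). Only the groups of Dnajc13 did not overlap, with all NMDA libraries below all controls.

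By a coarse compartment assigned to each protein, 9 of 39 members assigned to the cytosol rose and 0 fell within pairs. That group also holds proteins that act elsewhere, such as the endosomal Dnajc13. In the endoplasmic reticulum 2 of 14 rose, Dnajb11 and Dnajc3, and in mitochondria 1 of 10, Hspa9. Of all tested genes 5.65% rose and 8.35% fell in the same fit, and whether the compartments differed was not tested. The medians were 0.16, 0.01 and 0.08. Over all members, 9 had every NMDA library above every control (13.4%) and 6 had every NMDA library below every control (8.96%). Among all tested genes these shares were 8.18% and 11.1% (19.3% in all). NMDA was higher in all 3 pairs for 27 members and lower in all 3 for 10, beside 22.5% and 25.7% of all tested genes. Of the 12 that rose, 6 were separated in this way and all 12 were higher in each of 3 pairs, which selection by a paired test favours. The separated members that did not pass in either fit were Dnajc7, Dnajc11 and Dnajc12 above and Hspa13, Dnajc13, Dnajc16, Dnajb14 and Hspbap1 below; Dnajc11, Dnajc12, Dnajc16, Dnajb14 and Hspbap1 are named because they complete these counts and were chosen after their values were seen.

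The members' summed level was 9341, 9567 and 9827 CPM in NMDA libraries and 7775, 8713 and 9530 CPM in control libraries. Control replicate 1 was lowest and control replicate 3 lay within the NMDA range. The median log2 difference of the 67 members was 0.15 in pair 1, 0.01 in pair 2 and 0.07 in pair 3, after adding 0.5 CPM to each value. For 37 members the change was most positive in pair 1, against 15 in each of the others. Of all 14642 tested genes, 5211, 4703 and 4728 were most positive in pairs 1, 2 and 3, with medians of -0.02, -0.01 and 0.0. For the 12 that rose, the medians were 0.31, 0.31 and 0.23 in pairs 1, 2 and 3. Astrocyte markers had a median of 0.31, progenitor markers of 0.14 and fibroblast and mural markers of 0.23 in the same paired fit. Neuronal markers had a median of 0.03 and oligodendrocyte lineage markers of -0.03. Microglial and endothelial markers, with 2 tested in each, had 0.24 and 0.03. The part of these cell types in the changes was not tested. In bulk RNA more cells of a type and more RNA per cell cannot be told apart.

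**Figure D3:**
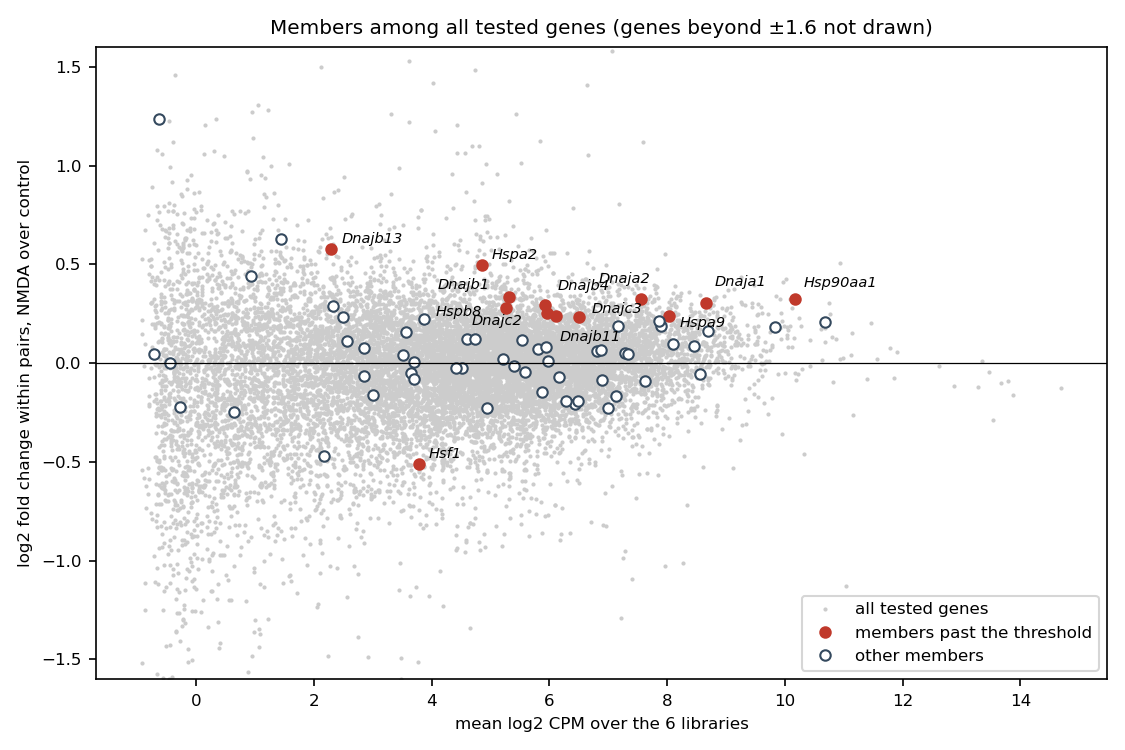
Log2 fold change within pairs, NMDA over control (vertical axis), against mean log2 CPM over the 6 libraries (horizontal axis); grey points are all 14642 tested genes within the drawn range and circles are members. The named members that rose cover levels from Dnajb13 to Hsp90aa1 and changes up to 0.58.

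Levels were compared between genes as CPM per kilobase of merged exon sequence. Hsp90ab1 was highest at 586 ± 16.8 in NMDA and 510 ± 62.2 in control libraries (SD, n = 3). Hsp90aa1 followed at 326 ± 26.3 and 262 ± 37.6, and Hspa8 at 225 ± 9.69 and 200 ± 31.6. These 3 stood apart in NMDA libraries; in controls the intervals of 1 SD of Hsp90aa1 and Hspa8 met. Hspd1, Hspa5, Hspe1 and Hspa4 came next, at 78.7 to 96.4 in NMDA and 70.7 to 84.7 in control libraries, where neighbours did not differ beyond their spread. Of the 50-base stretches, 38.6% in Hspa8, 39.7% in Hspd1 and 18.4% in Hspe1 recur in other annotated genes. Their levels, like that of Hsp90aa1, are uncertain to that extent. At the other end were Hspa12b, at 0.166 in both groups, and the inducible Hspa1a, at 0.254 in NMDA and 0.108 in control libraries.

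**Figure D4:**
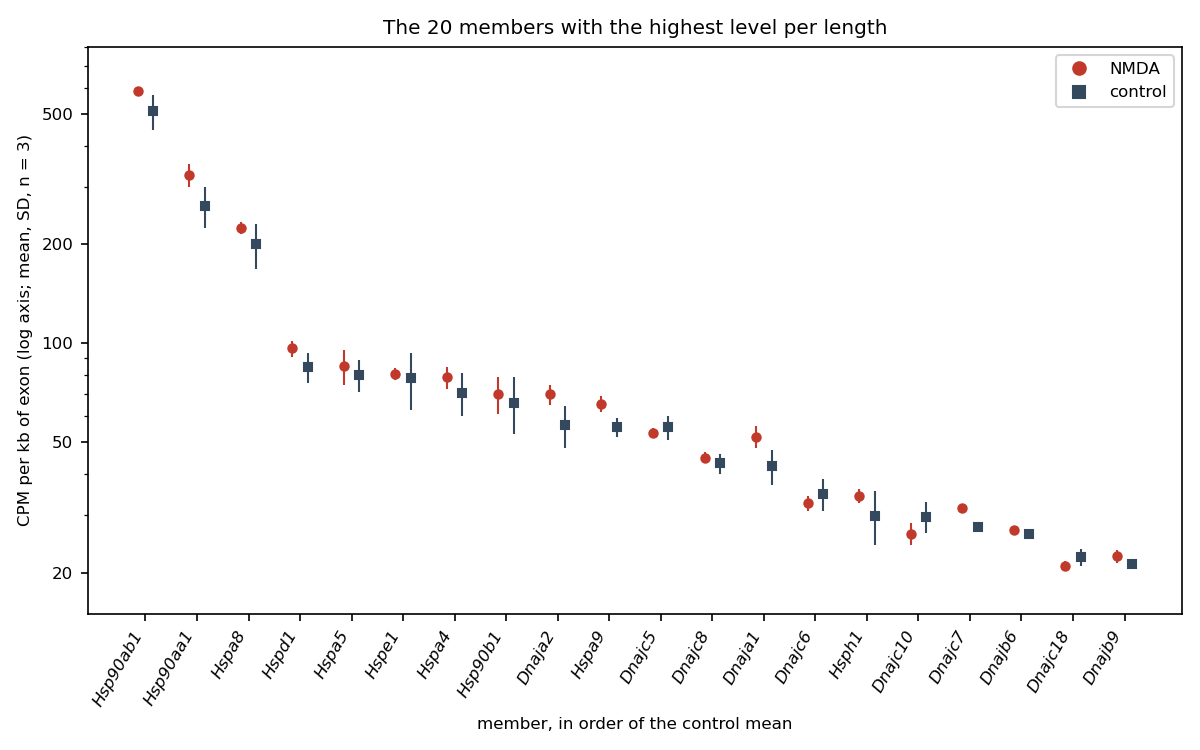
CPM per kilobase of exon (vertical log axis; mean and SD, n = 3) of the 20 members with the highest control mean, with NMDA to the left of control in each pair of symbols. Hsp90ab1, Hsp90aa1 and Hspa8 lie above 200 in NMDA libraries and all others below 100.

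The 20 symbols matched but left out had at most 15 counts in any library. Just inside the rule were Hspa1a, with 10 or more counts in 3 libraries, and Hspd1-ps3, a processed copy of Hspd1, with 16, 5 and 5 counts in NMDA and 2, 13 and 12 in control libraries. Just outside were Hspb2, which had 0, 15 and 6 counts in NMDA and 2, 10 and 3 in control libraries, and Hspb3. Hspb1, the HSP27 gene, had 0, 6 and 6 counts in NMDA and 2, 0 and 2 in control libraries. The literal name rule also took Hspbp1 and Hspbap1, which encode proteins that bind heat shock proteins, and leaving out these and the pseudogene changed no count of calls.

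Chaperone and heat shock response genes outside the name rule were examined in the same fits. Of 72 listed, 67 were tested; 9 rose and 2 fell within pairs (13.4% and 2.99%, beside 5.65% and 8.35% of all genes), and 0 passed without the block. At an unadjusted p under 0.05 edgeR without the block had 10 higher and 1 lower, beside 5.19% and 8.47% of all genes. At an adjusted p under 0.05 DESeq2 without the block called 3 higher, among 149 genes higher in all. Every NMDA library was above every control for 15 of the 67 (22.4%) and below for 1 (1.49%), beside 8.18% and 11.1% of all tested genes. Serpinh1, the collagen chaperone HSP47, had 53.3, 71.5 and 66.0 CPM in NMDA and 41.6, 48.7 and 49.1 CPM in control libraries (log2 0.45 ± 0.07 within pairs, edgeR adjusted p = 0.00041). Hmox1, heme oxygenase 1, had 45.2, 56.6 and 56.1 CPM in NMDA and 36.1, 37.1 and 40.3 CPM in controls (0.47 ± 0.08, adjusted p = 0.00048). In both genes the groups did not overlap. Fibroblast and mural markers belong to cells that express Serpinh1. They summed to 142 to 258 CPM in NMDA and 112 to 150 CPM in control libraries, and 2 of 7 rose. These were Acta2 and Tagln, at 0.56 and 0.67 within pairs. Col1a1, Dcn and Lum were at -0.21, -0.18 and -0.20, Col1a2 and Pdgfrb at 0.49 and 0.23, and none of these passed. The part of such cells in the result was not tested. Nudc and Sgta, cochaperones of HSP90 and HSP70, rose by 0.38 and 0.30, the prefoldin subunits Pfdn6 and Pfdn2 by 0.40 and 0.32, and the segregase Vcp by 0.31. Ttc4, an HSP90 cochaperone, fell (-0.26 ± 0.07, adjusted p = 0.025). None of the 8 tested subunits of the cytosolic chaperonin TRiC passed, with a median of 0.04.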

How the data were processed

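Poly(A) RNA-seq was deposited as 1 table of raw gene counts for 6 libraries. The authors' counts were made with Trimmomatic, TopHat and HTSeq on mm10 and GRCm38.p6, per the submitters' processing notes; versions and the handling of strand and multi-mapped reads were not stated. The 2153 rows without a gene name held 0.219% to 0.246% of counts. They could not match the name rule, but stayed in the table that was filtered, scaled and tested. Library totals were 15417234 to 19183999.

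Genes were kept with filterByExpr (10 counts in at least 3 libraries for members), scaled by TMM and tested with edgeR 4.0.16 in R 4.3.3 (robust quasi-likelihood, Benjamini-Hochberg over 14642 genes, threshold 0.05), by group alone and with the replicate number as a block. The block rests on the data: same-numbered libraries deviated together (correlations 0.539, 0.384 and 0.487; limit 0.1), while differently numbered ones ranged from -0.407 to -0.0231. The deviations were taken from the group mean and cancel over its libraries. The negative values therefore follow largely from the positive ones and give no separate check. Replicates differed beyond sampling noise (chi-square per degree of freedom 8.27 to 58.7). Alternatives were DESeq2 1.42.0, limma-voom 3.58.1, GC and length offsets, other scalings and filters, and leaving out libraries. Positions and exon lengths came from GENCODE M21.

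Members and lists were chosen with earlier results of these data known. Genes named are the classical members listed by role, every member that passed a test, the 10 with the smallest p by treatment alone, and up to 8 genes per direction of the other chaperones, some of which are not reported here. Dnaja3, Dnaja4, Hspa1l, Hspb6, Hspb11 and Hspa12b fall outside these rules and were named, after their values were seen, to complete a class or a range.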

Additional observations from a re-analysis of the deposited data

How the results depend on the processing

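Replicate block. Without the block edgeR called 0 members higher and 0 lower, and with it 12 and 1. For the other chaperone genes the block gave 9 higher and 2 lower, against 0 and 0 without it. Over all genes it gave 828 and 1223, against 55 and 8. The DESeq2 Wald test with the block called 7 members higher, 1 other chaperone gene lower, and 433 genes higher and 530 lower in all. Members called lower were 2 with no low-count filter and 2 with a filter at 1 CPM. Leaving out both libraries of a number moved members called higher between 1 and 13 and lower between 1 and 5, other chaperone genes called lower between 1 and 4, and all genes between 335 and 1341 higher and 683 (758 without replicate 3) and 1366 lower. GC content and length offsets gave 1159 higher and 969 lower.

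Without the block, other chaperone genes called higher were 3 with DESeq2 and 3 with no low-count filter, which also gave 1 lower. All genes called were 149 higher and 157 lower with DESeq2, and 130 and 130 with no filter; DESeq2 size factors gave 5 lower. Leaving out 1 library gave 0 to 3 other chaperone genes higher and 0 to 1 lower, and 19 to 89 genes higher and 0 to 57 lower in all.

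Among the named members, the sign of a log2 fold change turned under some alternatives for these 7. The turned values lay between -0.104 and 0.00418; for Hsf2, Hspe1 and Hspa4l some were at least as large as the full-data estimates. Leaving out 1 library without the block, the range was -0.15 to 0.00418 for Dnajc6, -0.0339 to 0.0331 for Hsf2, -0.0555 to 0.23 for Hsp90b1, -0.0622 to 0.19 for Hspa4l, -3.41e-05 to 0.19 for Hspa5, -0.0315 to 0.63 for Hspb8, -0.10 to 0.15 for Hspe1. Leaving out a pair with the block, it was -0.0337 to 0.045 for Hsf2, -0.0165 to 0.12 for Hspa4l, -0.0712 to 0.15 for Hspe1. The cause of these shifts was not tested. Depth limits Hspa1a, Hspa1b, Hspa1l, Bag3 and Dnajb13, and 2 residual degrees of freedom limit the paired fit.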
